A study of Homo sapiens with 4 samples.

Results

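C/D box small nucleolar RNAs (snoRNAs) were read from 113 rows of the deposited expression table of cells labelled A549, a human lung adenocarcinoma line. These rows have a symbol that begins with SNORD and reach 1 FPKM (reads scaled by gene length and library total) in 2 or more of the 4 libraries. The table holds 285 SNORD rows among 51136 rows, and 140 of the 285 were above 0 in some library. The members were therefore chosen by their level in these same libraries, without regard to group. The study compared 2 libraries of cells transfected with si-DLX6, small interfering RNA against the homeobox gene DLX6, with 2 libraries of cells transfected with si-control. All 4 libraries came from total RNA of cells grown in serum-containing medium. A label common to all 4 also names an adipogenic treatment, of which neither the sample titles nor the description of the transfection speaks. Whether replicate libraries stem from different cultures is not in the labels, and p-values here may therefore cover no more than technical spread. The si-DLX6 columns are headed HR99SEQ1_Si and HR99SEQ2_Si, and the si-control columns HR99_NC_1 and HR99_NC_2. Whether SEQ1 and SEQ2 mark different siRNA sequences is not stated. The spread between the si-DLX6 libraries may thus hold a difference of siRNA that cannot be told apart from replicate spread.

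Each C/D box snoRNA carries a C box and a D box, short motifs that the proteins SNU13, NOP56, NOP58 and fibrillarin bind. A stretch upstream of the D box, or of an internal copy of it, pairs with ribosomal or spliceosomal RNA and directs fibrillarin to methylate the ribose of 1 nucleotide there. A few members, above all U3 (SNORD3), U8 (SNORD118) and U14 (SNORD14), act in the cutting of the ribosomal RNA precursor. Most human C/D box snoRNAs are trimmed from introns of a host gene after splicing, and several hosts, such as GAS5 and SNHG1, have no known protein product. Mature snoRNAs have no poly(A) tail, and the libraries were made with a kit named for mRNA.

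Sequences are shown for those of the 10 largest called falls, among members with 10 or more reads in 2 libraries, that the annotation holds, for both other SNORD14 copies in HSPA8, and for the members of protein-coding hosts with the most reads. They are from GENCODE release 29 (GRCh38), 5′ to 3′. Capitals mark the first exact TGATGA in the first 20 bases (C box) and the last exact CTGA in the last 15 bases (D box), on the RNA strand only. SNORD25 (chr11:62855564-62855632, minus strand) lies in SNHG1. SNORD14C (chr11:123059335-123059422), SNORD14D (chr11:123058909-123058995) and SNORD14E (chr11:123058077-123058161) lie on the minus strand in HSPA8. SNORD16 (chr15:66502812-66502910, minus strand) lies in RPL4, and SNORD42A (chr17:28723429-28723492, plus strand) in RPL23A. SNORD104 (chr17:64146083-64146152, plus strand) lies in SNHG25. SNORD96A (chr5:181241814-181241892, minus strand) lies in RACK1, and SNORD36A (chr9:133350456-133350528, plus strand) in RPL7A.
SNORD25: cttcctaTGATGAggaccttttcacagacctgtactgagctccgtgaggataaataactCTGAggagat
SNORD14D: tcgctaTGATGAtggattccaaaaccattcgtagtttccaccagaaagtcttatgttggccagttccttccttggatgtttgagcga
SNORD14C: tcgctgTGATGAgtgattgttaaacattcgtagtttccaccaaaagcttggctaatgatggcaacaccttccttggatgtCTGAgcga
SNORD14E: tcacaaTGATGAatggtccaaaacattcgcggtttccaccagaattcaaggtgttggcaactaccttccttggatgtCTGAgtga
SNORD16: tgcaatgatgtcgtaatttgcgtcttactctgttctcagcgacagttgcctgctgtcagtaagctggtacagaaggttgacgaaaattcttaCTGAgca
SNORD104: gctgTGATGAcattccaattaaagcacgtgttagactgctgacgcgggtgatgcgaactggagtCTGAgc
SNORD42A: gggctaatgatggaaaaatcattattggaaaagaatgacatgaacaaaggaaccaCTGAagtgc
SNORD96A: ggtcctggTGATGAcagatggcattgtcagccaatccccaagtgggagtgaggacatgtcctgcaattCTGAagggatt
SNORD36A: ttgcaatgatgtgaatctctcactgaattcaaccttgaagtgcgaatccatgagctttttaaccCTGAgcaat

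Of the 87 members with a GENCODE sequence, 52 (59.8%) held the exact C box in that window, 84 (96.6%) the exact D box and 50 (57.5%) both. Over all 278 GENCODE genes named SNORD the shares were 69.1%, 92.4% and 66.5%. Over 147 genes named SNORA, the H/ACA class, they were 0.68%, 3.4% and 0%. The exact D box was thus common to nearly all members with a sequence, while the exact C box was missing in this window from many. In the sequences above, SNORD14D has no exact CTGA in its last 15 bases, and SNORD16, SNORD42A and SNORD36A have no exact TGATGA in their first 20. SNORD14C, SNORD14D and SNORD14E are related copies, with 75.6% to 79.1% identical positions in pairwise alignments. Whether the counting split any reads among them was not tested.

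The rows of the members stood for genes of 48 to 237 bases, with a median of 76. Of the 113, 108 lay within 51 host genes, and 107 of those lay in an intron of 1 or more annotated host transcripts. An exon of another host transcript also covered 67 of these members. Reads from a snoRNA and from unspliced or alternatively spliced host RNA cannot be told apart in this table. The 5 U3 rows had no host.

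Library totals, inferred from the deposited values, were 10485013 and 10665357 reads with si-DLX6, and 12075285 and 9678221 reads with si-control. DLX6 itself stood at 0.916 and 0.450 FPKM in si-DLX6 cells, against 3.27 and 3.47 FPKM in si-control cells. The labelled cell type was only partly borne out by its markers. The epithelial keratins KRT8 and KRT18 stood at 100 to 475 FPKM. EPCAM, KRT19, CDH1 and AKR1B10 were all under 0.5 FPKM in every library, and AKR1C1 reached at most 1.496 FPKM. Of 6 adipocyte markers only PPARG averaged 1 FPKM or more, and ADIPOQ and LEP were at 0. Summed adipocyte markers came to 2.06 and 2.13 FPKM with si-DLX6, against 1.15 and 1.57 FPKM with si-control. Nearly all of these sums was PPARG, at 1.82 and 2.13 FPKM with si-DLX6, against 1.15 and 1.49 FPKM with si-control (not called). None of 14 fibroblast, leukocyte and endothelial markers averaged 1 FPKM in the libraries. The 5 fibroblast markers among them summed to 0.508 and 0.647 FPKM with si-DLX6, against 0.257 and 0.256 FPKM with si-control. Most of that difference was COL1A1, at 0.467 and 0.380 FPKM with si-DLX6, against 0.112 and 0.105 FPKM with si-control. DCN averaged 0.123 FPKM with si-DLX6 and 0.140 FPKM with si-control, and LUM was at 0. The part of these levels in the snoRNA results was not tested.

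Few reads stood behind each member. One read in a gene of 70 bases was worth 1.36 and 1.34 FPKM in the si-DLX6 libraries, and 1.18 and 1.48 FPKM in the si-control libraries. The mean over the 4 libraries was 0.5 to 387.25 reads per member, with a median of 6.75. Of the 113 members, 74 had a mean under 10 reads, 3 had a mean of 50 or more (SNORD3A, SNORD96A and SNORD36A) and 25 were at 0 in some library. Reads were recovered from the FPKM values and the gene lengths, and all intervals below are exact 95% intervals for counting error only.

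Taken over all 285 rows, C/D box snoRNA reads were fewer with si-DLX6. They came to 1191 and 1551 reads in the si-DLX6 libraries, against 1881 and 1795 in the si-control libraries. Scaled to reads per 1000000 library reads (RPM), the sums were 113.6 and 145.4 with si-DLX6, against 155.8 and 185.5 with si-control. Both si-DLX6 libraries lay below both si-control libraries, although si-DLX6 2 was closer to si-control 1 than to si-DLX6 1. The means were 129.5 ± 22.5 with si-DLX6 and 170.6 ± 21.0 with si-control (SD, n = 2 each), and the pooled si-DLX6 reads were 76.7% of those of si-control (73.0% to 80.6%). An exact two-sided permutation test gave p = 0.333, the smallest that 2 against 2 libraries allow. In bulk RNA, fewer cells of a kind and less RNA per cell cannot be told apart.

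The U3 rows and the other rows were also read apart. The 5 U3 rows held 409 and 545 reads with si-DLX6, against 480 and 541 with si-control, or 96.1% (87.9% to 105%). In RPM they stood at 39.0 and 51.1 with si-DLX6, against 39.8 and 55.9 with si-control. All other SNORD rows held 782 and 1006 reads with si-DLX6, against 1401 and 1254 with si-control, or 69.3% (65.2% to 73.6%). The other rows averaged 84.5 ± 13.96 RPM with si-DLX6 and 122.8 ± 9.58 with si-control (SD, n = 2 each). The 108 SNORA rows, whose RNAs guide pseudouridylation, held 577 and 679 reads with si-DLX6, against 786 and 650 with si-control, or 90.0% (83.3% to 97.1%). The interval of the C/D box rows without U3 overlaps neither that of the U3 rows nor that of the SNORA rows. These intervals cover counting error only, and no difference between these sets was tested over libraries. Replicates of the members differed by more than counting error, with a chi-square per degree of freedom of 2.14 (si-DLX6) and 1.77 (si-control). Without U3 the values were 1.31 and 1.31.

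**Figure D1:**
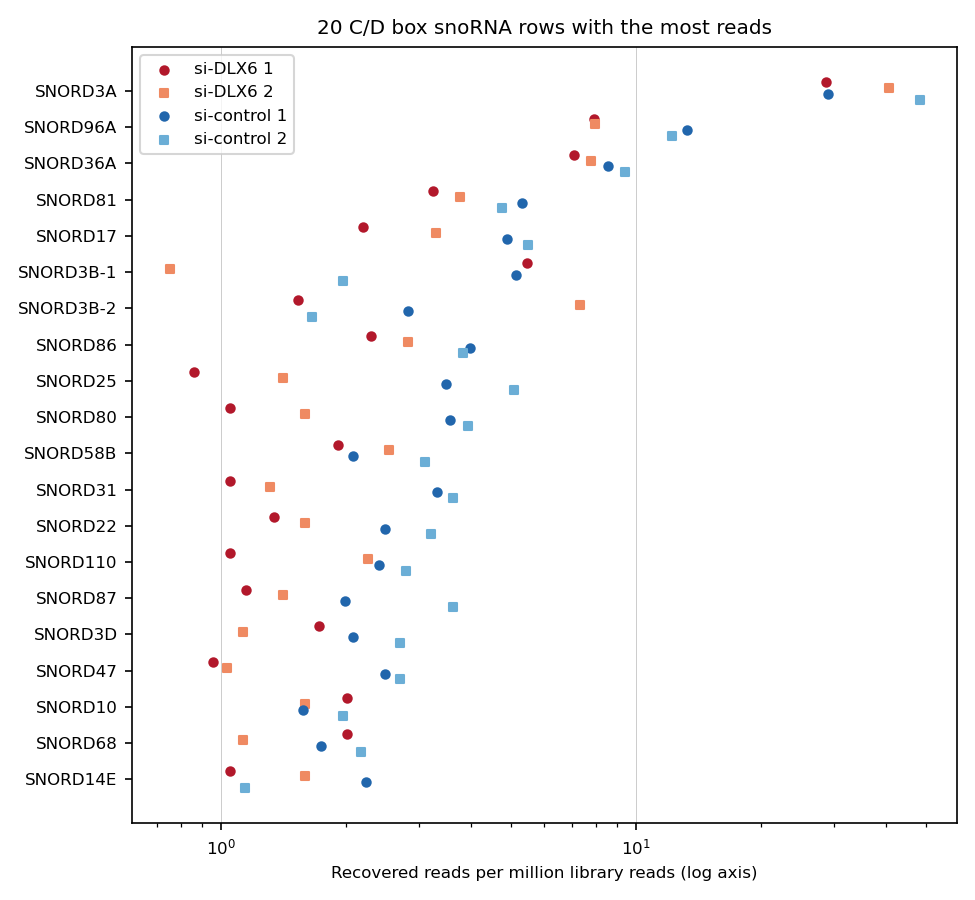
Recovered reads per 1000000 library reads (RPM; horizontal, log axis) of the 20 members with the most reads, 1 point per library, si-DLX6 in red and orange and si-control in blue. SNORD96A, SNORD25, SNORD80 and SNORD31 have both si-DLX6 libraries left of both si-control libraries, while SNORD3A and SNORD3B-1 overlap.

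Row by row, the calls ran mostly in the lower direction. A limma-trend fit on log2(FPKM + 1) over all 15504 rows at 1 FPKM in 2 libraries, with Benjamini-Hochberg adjustment at 0.05, called 25 of the 113 members lower (22.1%) and 3 higher (2.65%). Over all tested rows it called 9.49% lower and 10.2% higher. One of the 25, SNORD4B, passed the level threshold through the si-control libraries alone, and without it 24 of 112 members were lower (21.4%). The median log2 fold change was -0.37 over the members and 0.05 over all tested rows, and 73 members were below 0. A limma-voom fit on the recovered reads called 12 members lower and 0 higher, and all 12 were among the 25. These 12 were 10.6% of the members, where that fit called 12.9% of all rows lower and 12.6% higher, so by limma-voom the share called lower was not above that of all rows. Of the 113 members, 41 had both si-DLX6 libraries below both si-control libraries and 13 had them above, where 27.9% and 35.1% of all tested rows did so. The 41 are 36.3% and the 13 are 11.5% of the members. Without the filter on low values, limma-trend called 6 of the members lower (5.31%, against 0.716% of all rows) and 0 higher. Without si-DLX6 library 2 it called 38 lower (33.6%, against 5.9% of all rows) and 5 higher.

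Split by the mean over all 4 libraries, limma-trend called 16 of the 39 members with 10 or more reads lower and 0 higher, with a median log2 fold change of -0.51. Of the 74 with fewer it called 9 lower and 3 higher, with a median of -0.13. Limma-voom called 11 of the 39 and 1 of the 74 lower. Over all rows, limma-trend called 9.49% lower and 10.2% higher, and limma-voom called 12.9% lower. Shares over all rows of like read depth were not taken. More reads make a call easier, so this split does not set well-read snoRNAs apart from other well-read rows. Counting intervals lay wholly below 100% of si-control for 22 members and wholly above it for 2, SNORD94 and SNORD3B-2. The assignment of reads to SNORD3B-2 is uncertain, as given below.

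**Figure D2:**
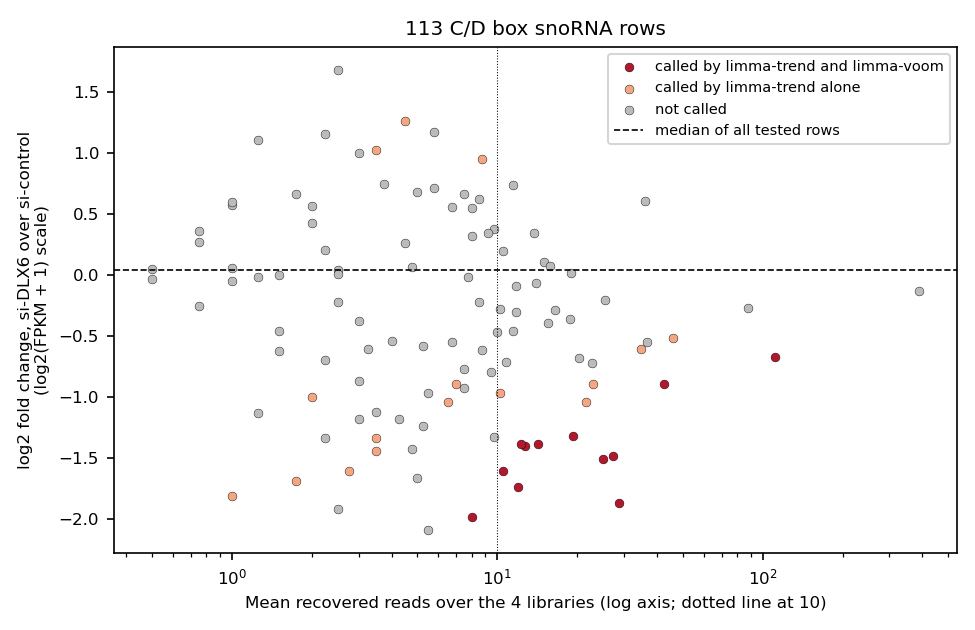
log2 fold change of si-DLX6 over si-control (vertical) against the mean recovered reads (horizontal, log axis) for the 113 members, coloured by call. The 12 members called by both fits all have negative fold changes, and 11 of the 16 members called by limma-trend alone have fewer than 10 mean reads.

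The members hosted by SNHG1, a long noncoding RNA gene with snoRNAs in its introns, had the lowest share of si-control reads among the 23 hosts with 40 or more snoRNA reads. Its 8 members held 53 and 88 reads with si-DLX6, against 169 and 169 with si-control, or 42.9% (35.0% to 52.4%). SNORD25, a guide for 18S ribosomal RNA whose sequence is shown above, had 9 and 15 reads with si-DLX6, against 42 and 49 with si-control. Its groups were far apart, at 12.8 and 21.0 FPKM with si-DLX6 and 51.9 and 75.6 FPKM with si-control. Its log2 fold change was -1.87 (SE 0.26, limma-trend, Benjamini-Hochberg adjusted p = 0.0079). An exon covered SNORD25 in 5 annotated SNHG1 transcripts and an intron in 2, unlike the other members of this host, which were intronic in most.

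SNORD31, a guide for 28S ribosomal RNA, had 11 and 14 reads with si-DLX6, against 40 and 35 with si-control. Its log2 fold change was -1.51 (limma-trend, Benjamini-Hochberg adjusted p = 0.0032). SNORD29, also a 28S guide, had 5 and 8 reads with si-DLX6, against 18 and 18 with si-control. SNORD22, a processing snoRNA with no known methylation target in ribosomal RNA, had 14 and 17 reads with si-DLX6, against 30 and 31 with si-control. SNORD29, SNORD22 and SNORD30 were called lower too, with log2 fold changes of -1.38, -0.89 and -1.04. SNORD26 had 0 and 5 reads with si-DLX6, against 9 and 8 with si-control, and was not called. SNORD27 and SNORD28 overlapped between groups: SNORD27 had 9 and 11 reads with si-DLX6 and 5 and 12 with si-control, and SNORD28 had 2 and 13 with si-DLX6 and 17 and 6 with si-control. So 5 of the 8 members of this host were lower by limma-trend, and 3 of them (SNORD25, SNORD31 and SNORD29) by limma-voom as well.

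GAS5 is a noncoding gene whose transcript bears a 5′ terminal oligopyrimidine tract. Its 9 members held 90 and 106 reads with si-DLX6, against 211 and 171 with si-control, or 52.8% (44.2% to 62.9%). SNORD80, a 28S guide, had 11 and 17 reads with si-DLX6, against 43 and 38 with si-control (log2 fold change -1.48). SNORD47, a 28S guide, had 10 and 11 reads with si-DLX6, against 30 and 26 with si-control (-1.32). SNORD79, a 28S guide, had 6 and 4 reads with si-DLX6, against 16 and 22 with si-control (-1.74). These 3 members were called lower by both fits, and in each the groups lay apart.

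SNORD81, a 28S guide and the GAS5 member with the most reads, had 34 and 40 reads with si-DLX6, against 64 and 46 with si-control. It was called lower by limma-trend with a smaller log2 fold change of -0.51, but not by limma-voom. The other 5 members of GAS5 overlapped between groups and were not called. SNORD76 had 14 and 13 reads with si-DLX6, against 16 and 13 with si-control, a log2 fold change of -0.06. All 9 fold changes were below 0, from -1.74 to -0.06, and differences between members were not tested. These members share a transcript, so they are not independent measurements.

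The 4 members hosted by NOP56, which encodes a core protein of the C/D box particle itself, held 47 and 67 reads with si-DLX6, against 87 and 82 with si-control, or 69.4% (54.2% to 88.5%). SNORD86 had 24 and 30 reads with si-DLX6, against 48 and 37 with si-control, and was called lower by limma-trend (log2 fold change -0.60), not by limma-voom. SNORD110, an 18S guide, had 11 and 24 reads with si-DLX6, against 29 and 27 with si-control, and missed the threshold. Of the 4 members only SNORD57 had a positive fold change.

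**Figure D3:**
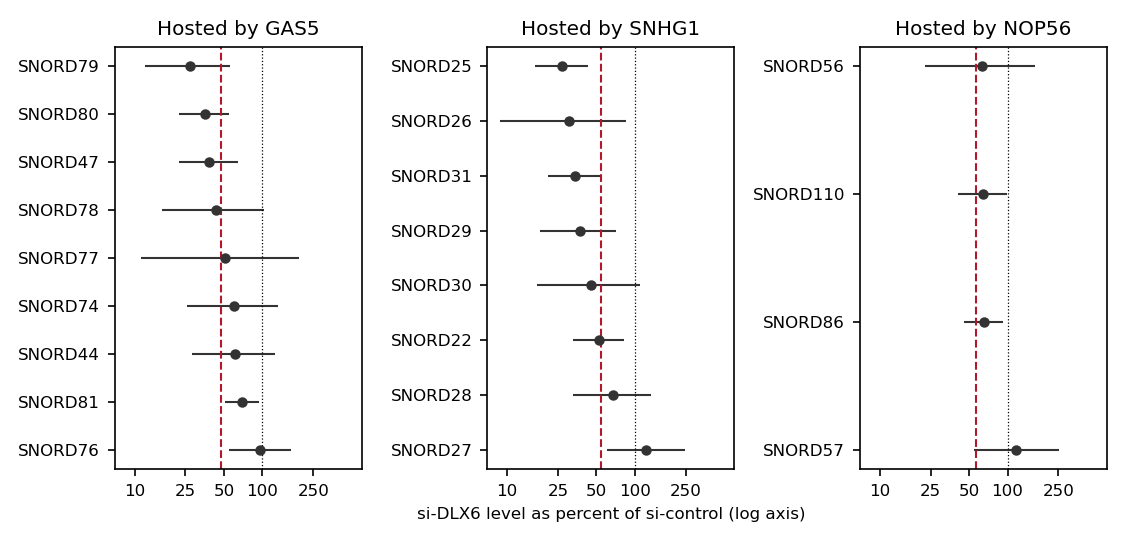
Reads of each member in si-DLX6 libraries as percent of si-control, per library read (horizontal, log axis), with exact 95% counting intervals, for the members of GAS5, SNHG1 and NOP56. The red dashed line is the host transcript's own si-DLX6 FPKM as percent of si-control (47.4%, 54.4% and 56.7%), and the dotted line marks 100%.

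These 3 hosts were themselves lower with si-DLX6. GAS5 averaged 136 ± 17.4 FPKM with si-DLX6 and 287 ± 16.1 FPKM with si-control (SD, n = 2 each), a log2 fold change of -1.08. SNHG1 averaged 53.2 ± 0.49 FPKM with si-DLX6 and 97.8 ± 0.41 FPKM with si-control, a log2 fold change of -0.87. NOP56 averaged 151 ± 15.8 FPKM with si-DLX6 and 266 ± 5.75 FPKM with si-control, a log2 fold change of -0.82. All 3 passed limma-trend with Benjamini-Hochberg adjustment. Of the 49 hosts with a row, 14 were called lower and 0 higher (limma-trend, among 9.49% and 10.2% of all tested rows).

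Low snoRNA reads were not limited to hosts that were called lower. SNORD96A, a 5.8S guide in RACK1 (listed as GNB2L1) and the hosted member with the most reads, had 83 and 85 reads with si-DLX6, against 160 and 118 with si-control, or 62.2% (51.0% to 75.5%). It was lower by both fits (log2 fold change -0.67, SE 0.10, limma-trend, Benjamini-Hochberg adjusted p = 0.0086). RACK1 itself averaged 3399 FPKM with si-DLX6 and 3540 FPKM with si-control and was not called. SNORD17, a 28S guide in SNX5, had 23 and 35 reads with si-DLX6, against 59 and 53 with si-control (log2 fold change -0.89). SNX5 averaged 30.8 FPKM with si-DLX6 and 36.8 FPKM with si-control and was not called.

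SNORD16, an 18S guide in RPL4, had 4 and 5 reads with si-DLX6, against 20 and 13 with si-control (log2 fold change -1.61). SNORD42A, an 18S guide in RPL23A, had 8 and 7 reads with si-DLX6, against 20 and 22 with si-control (-1.38). SNORD87 in SNHG6, a 28S guide, had 12 and 15 reads with si-DLX6, against 24 and 35 with si-control (-1.04). RPL4, RPL23A and SNHG6 were not called, with log2 fold changes of -0.09, 0.05 and -0.06. SNORD104, a 28S guide in SNHG25, had 6 and 7 reads with si-DLX6, against 21 and 17 with si-control (-1.40). All 4 of these snoRNAs were lower by limma-trend, and SNORD16, SNORD42A and SNORD104 by limma-voom as well.

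In RPL13A the host was called lower and no member was. The same held for other hosts, among them CKAP5, GNL3, LRRC75A-AS1, NCL, SNRPB and TNPO2. In GAS5, HSPA8, NOP56, RABGGTB, SNHG1 and SNHG12 both the host and 1 or more members were called lower. LRRC75A-AS1 stood at 65.3% of si-control FPKM, and its snoRNA reads at 80.7% (54.8% to 118%). SNRPB had a log2 fold change of -1.36, but its 1 member had too few reads to judge. RPL13A averaged 343 FPKM with si-DLX6 and 721 FPKM with si-control, a log2 fold change of -1.07. Its 4 members held 11 and 22 reads with si-DLX6, against 28 and 16 with si-control, or 77.1% (47.6% to 124%). The 47.6% of RPL13A itself lies at the lower edge of that interval. RPL7A, with a log2 fold change of 0.00, held SNORD36A, an 18S guide that had 74 and 83 reads with si-DLX6, against 103 and 91 with si-control (83.2%, 67.01% to 103%). SNORD36A was not called (log2 fold change -0.27, limma-trend, Benjamini-Hochberg adjusted p = 0.119). Over the 36 members in ribosomal protein genes, si-DLX6 reads were 84.6% of si-control (76.0% to 94.1%). Limma-trend called 6 of the 36 lower (16.7%) and 1 higher (2.78%), against 9.49% and 10.2% of all tested rows.

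Across the 23 hosts with 40 or more snoRNA reads, the log2 ratio of the host and that of its summed snoRNA reads were weakly related, with Pearson's r of 0.34 and Spearman's rho of 0.40. Without GAS5 and SNHG1 they were 0.19 and 0.30 over 21 hosts. The points share the same 4 libraries, and each host's reads can include those of its introns, so this is a description. In 19 of the 23 the snoRNA reads were under 100% of si-control, with the interval below 100% in 10 and above 100% in 0.

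**Figure D4:**
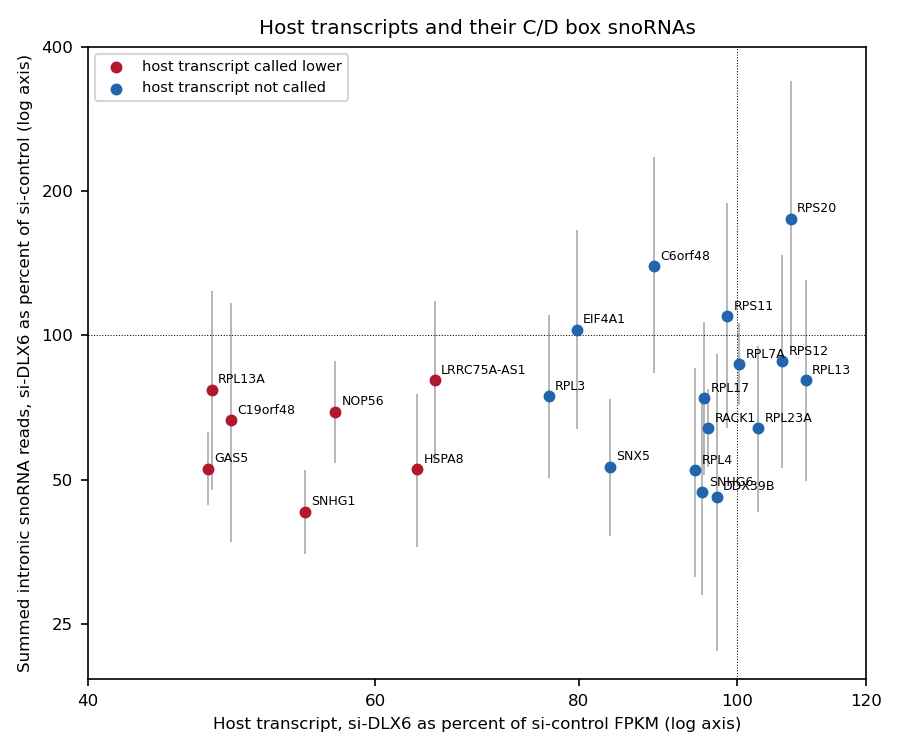
Summed snoRNA reads (vertical) against host transcript FPKM (horizontal), each as si-DLX6 percent of si-control on a log axis, for 22 of the 23 hosts with 40 or more snoRNA reads; vertical bars are exact 95% counting intervals and red points are hosts called lower. GAS5, SNHG1 and NOP56 are low on both axes, while RACK1, RPL4 and SNX5 have low snoRNA reads with host transcripts at 83.6% to 96.0% of si-control.

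Of the snoRNAs that act in processing of the ribosomal RNA precursor, SNORD22 was called lower by limma-trend alone, as given above. No U3 row was called by limma-trend or limma-voom. SNORD3A, the main U3 row, had 301 and 433 reads with si-DLX6, against 349 and 466 with si-control, and its groups overlapped (log2 fold change -0.13, limma-trend, Benjamini-Hochberg adjusted p = 0.768). The near-identical copies SNORD3B-1 and SNORD3B-2 varied widely between libraries of 1 group. SNORD3B-1 had 57 and 8 reads with si-DLX6, against 62 and 19 with si-control, while SNORD3B-2 had 16 and 78 with si-DLX6, against 34 and 16 with si-control. Their assignment to 1 copy or the other is uncertain. Summed, they held 73 and 86 reads with si-DLX6, against 96 and 35 with si-control (125%, 98.4% to 159%). All 5 U3 rows stood for genes of 217 bases, and their sequences were not compared. The assignment of reads to SNORD3A, SNORD3C and SNORD3D may thus be uncertain too, and single U3 rows are less sure than their sum.

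SNORD3C had 17 and 14 reads with si-DLX6, against 10 and 14 with si-control, and SNORD3D had 18 and 12 with si-DLX6, against 25 and 26 with si-control. SNORD3D lay lower in both si-DLX6 libraries but was not called (log2 fold change -0.68, limma-trend, Benjamini-Hochberg adjusted p = 0.0713). With a filter of 10 reads in 2 libraries its adjusted p was 0.0469. SNORD118 (U8), which acts in maturation of the large subunit RNAs, had only 5 and 5 reads with si-DLX6, against 4 and 4 with si-control. A change in U8 was not detectable at this depth.

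The U14 copies pair with 18S RNA. The 3 copies in HSPA8 held 22 and 25 reads with si-DLX6, against 59 and 33 with si-control, or 52.5% (36.2% to 75.5%), and HSPA8 was itself called lower (log2 fold change -0.65). SNORD14D had 5 and 1 reads with si-DLX6, against 16 and 10 with si-control (log2 fold change -1.98, lower by both fits, with a limma-trend Benjamini-Hochberg adjusted p of 0.0347, and 0.0543 with a pseudocount of 0.1). SNORD14C had 6 and 7 reads with si-DLX6, against 16 and 12 with si-control (-0.97, lower by limma-trend). SNORD14E overlapped, with 11 and 17 reads with si-DLX6, against 27 and 11 with si-control. SNORD14B in RPS13 was called higher by limma-trend, on 5 and 5 reads with si-DLX6, against 2 and 2 with si-control (257%, 74.2% to 1123%). Differences between the copies were not tested.

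Besides SNORD14B, 2 members were called higher. SNORD52, a 28S guide in C6orf48, had 13 and 10 reads with si-DLX6, against 8 and 4 with si-control (log2 fold change 0.96, limma-trend, Benjamini-Hochberg adjusted p = 0.033). SNORD94, a guide for the spliceosomal U6 RNA in PTCD3, had 5 and 9 reads with si-DLX6, against 2 and 2 with si-control (1.27). No member was called higher by limma-voom. The other members called lower by limma-trend, SNORD4B, SNORD43, SNORD45B, SNORD50A, SNORD58C, SNORD99 and SNORD101, had between 0 and 12 reads in any library, and none was called by limma-voom.

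A list of 26 genes for proteins that bind, assemble or trim snoRNAs, or act on ribosomal RNA, was set beside the snoRNAs (the particle list). It is not limited to the C/D box particle, and NAT10 and ISG20L2 are among those called lower. Of the 26 genes, 7 were called lower by limma-trend and 0 higher, against 9.49% and 10.2% of all tested rows. The median log2 fold change was -0.32. NOP56 is given above, and SNU13 (listed as NHP2L1), the protein that binds the box motifs first, had -0.38. RRP9, a protein of the U3 particle, had 18.9 and 14.8 FPKM with si-DLX6, against 39.5 and 37.8 FPKM with si-control (-1.16). NOLC1, a nucleolar protein that associates with snoRNPs, had 23.3 and 23.3 FPKM with si-DLX6, against 75.0 and 79.9 FPKM with si-control (-1.69), the largest of the 7.

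NAT10, an acetyltransferase of 18S RNA, had a log2 fold change of -0.77, and the nucleases ISG20L2 and TOE1 had -0.81 and -0.47. FBL, the methyltransferase fibrillarin, had 844 and 700 FPKM with si-DLX6, against 1017 and 938 FPKM with si-control, and was not called (log2 fold change -0.34, limma-trend, Benjamini-Hochberg adjusted p = 0.125). By limma-trend NOP58 (-0.23) and the assembly helicases RUVBL1 (-0.34) and RUVBL2 (-0.16) were not called either. Limma-voom called 10 of the 26 lower, RUVBL1 among them, against 12.9% of all rows.

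At the level threshold, the members just inside had few reads. SNORD12C had 0 and 2 reads with si-DLX6 and 1 and 0 with si-control, SNORD45C had 0 and 3 with si-DLX6 and 1 and 0 with si-control, and SNORD66 had 1 and 0 with si-DLX6 and 1 and 0 with si-control. The rows just outside were SNORD124, SNORD88A and SNORD1B, whose second highest values were 0.994, 0.967 and 0.963 FPKM. A single member, SNORD4B, passed through the si-control libraries alone. The 172 SNORD rows below the threshold held 8 and 25 reads in all with si-DLX6, against 11 and 11 with si-control. The SNORD113 and SNORD114 rows (40) and the SNORD115 and SNORD116 rows (80) had no read in any library. These rows lie in imprinted clusters on chromosomes 14 and 15. By counting error alone, a summed level of up to 0.286 and 0.281 RPM with si-DLX6 and 0.248 and 0.310 with si-control remains possible for either cluster. How reads that match several copies were counted is not given, so these values are no upper limit on the RNA.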

How the data were processed

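The deposited table holds 1 value per gene and library. Its header names no unit, and the authors' deposited values were taken as FPKM. Of the small RNA values above 0, 93.8% to 95.4% per library came to nearly whole reads with RefSeq lengths and the inferred library totals. Over all rows above 0, 28633 of 28637 gave whole reads (within 0.001 reads). The length of each row was itself searched for so that its reads came out whole, so that count is largely built in and lends no weight to the unit. For aligner, counter and strand use: not given in the sources used here. A mouse build (GRCm38, mm10) is listed in the submitters' processing notes, but the rows carry human symbols and KEGG identifiers, and which build the authors used is unknown. Positions, hosts and sequences are from RefSeq and GENCODE release 29 (GRCh38), and 107 of 113 lengths behind the values equal RefSeq's. For small RNA rows the multiple of the fitted length nearest RefSeq's was taken, so this match is partly imposed.

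Reads were recovered as value times length times library total. Each library total was inferred by taking the commonest value times RefSeq length among small RNA genes as 1 read. The main test, from limma 3.58.1 in R 4.3.3, was limma-trend with group as its 1 term, fitted to log2(FPKM + 1) over rows at 1 FPKM in 2 or more libraries, with Benjamini-Hochberg adjustment at 0.05. Fold changes on this scale understate those of low rows. Limma-voom on recovered reads with TMM scaling was an alternative, as were other scalings, filters, a pseudocount of 0.1, a replicate block and leaving out each library. The scripts were also run on simulated reads, with the spread between replicates set alike for every row. The outcome is not given here and lends no weight to the calls on members. Intervals for read ratios are exact binomial 95% intervals; reads carry no molecular identifiers, so the intervals and the floor of 3 reads for a count of 0 cover counting error only. Python 3.11.15 was used for summaries.

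Named are the 10 members with the most reads, up to 10 of the largest called falls and rises with 10 reads in 2 libraries, the processing snoRNAs, members at the threshold, hosts, a list of particle genes and DLX6; members beyond these were named after their values were seen. The members and lists were chosen with earlier results of these data known. The values of 1 host gene are not reported here.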

Additional observations from a re-analysis of the deposited data

How the results depend on the processing

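The median log2 fold change of the C/D box snoRNA rows stayed negative under every alternative run (-0.56 to -0.24), and the summed si-DLX6 level stayed below that of si-control (ratios of 0.666 to 0.852, and 0.688 without the U3 rows, an alternative chosen after seeing the data). The counts of calls moved. Rows called lower were 25 as reported, 6 with no filter on low values, 12 by limma-voom, 40 with a replicate block and 20 to 38 on leaving out each library in turn. The shares of all rows called lower in these fits were 9.49%, 0.716%, 12.9%, 15.3% and 4.41% to 5.9%. The fit with no filter covered 140 SNORD rows, and all 6 calls were among the 113 members. Rows called higher were 3 as reported, 0 with no filter, 1 with a filter of 10 reads in 2 libraries, 0 by limma-voom, 9 with the block and 5 to 10 on leaving out each library, where 10.2%, 0.583%, 12.7%, 12.6%, 17.7% and 4.4% to 5.5% of all rows were higher. Genes of the particle list called were 7 as reported, 1 with no filter, 10 by limma-voom and 12 with the block. The cause of these moves was not tested. Replicate numbers were shared by only 2 pairs of libraries, whose deviations correlated at 0.20 over 15504 rows. The labels do not say what a number marks, and whether the pairing reflects something shared was not settled.

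On leaving out each library in turn, SNORD86 lost its call in 3 of the 4 fits. SNORD17, SNORD30, SNORD50A, SNORD52, SNORD81, SNORD87 and SNORD101 lost it in 2, and SNORD14D, SNORD45B, SNORD58C and SNORD94 in 1. The other 16 called members lost it in none. Some log2 fold changes not called as reported changed sign on leaving out a library: SNORD14E ranged from -0.75 to 0.18, SNORD3A from -0.49 to 0.24, SNORD3B-1 from -1.82 to 0.73, SNORD3B-2 from -0.45 to 1.66, RACK1 (GNB2L1) from -0.169 to 0.0514, RPL17 from -0.223 to 0.0741, RPL23A from -0.0437 to 0.135, RPL4 from -0.203 to 0.027 and RPL7A from -0.18 to 0.17. RPL23A was at -0.0476 with median-of-ratios scaling and -0.0019 by limma-voom, and RPL7A at 0.0139 with upper-quartile scaling. Without si-DLX6 library 1, limma-trend called SNORD3B-1 lower (Benjamini-Hochberg adjusted p = 0.0400), SNORD3B-2 higher (0.0133) and SNORD3D lower (0.0341). With a median of 6.75 reads per member, single rows other than the most abundant had little precision.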
